A study of Homo sapiens with 18 samples.

Results

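The genes described here encode the proteasome and the factors that build it. They were chosen by name: a gene symbol made of PSMA, PSMB, PSMC, PSMD, PSME, PSMF or PSMG and a number, with more than 1 CPM (counts scaled to a common library size) in at least 3 of the 18 libraries. Of 48 such symbols among the 26485 in the count table, 46 passed, and each of these 46 was above 1 CPM in all 18 libraries. PSMA8, the germ cell form of an alpha subunit, and PSMB11, the thymic catalytic subunit, had 0 counts in every library. PSMB9 was the nearest to the limit, with a lowest value of 1.04 CPM (43 counts), and PSMG4 came next with 9.84 CPM.

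The 26S proteasome degrades proteins that carry ubiquitin. Its 20S core is a barrel of alpha rings, which gate the entry, and beta rings, which hold the catalytic sites. The 19S particle caps the barrel: a base of ATPases unfolds the substrate, and a lid removes the ubiquitin. Interferon induces the alternative catalytic subunits of the immunoproteasome. Other caps (PA28 and PA200) can replace the 19S particle, and dedicated chaperones assemble the core and the base. Loss of proteasome activity is known to raise transcription of its own genes through the factor NFE2L1, whereas heat shock raises chaperones through HSF1.

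RNAseq was performed on SW620, a line derived from human colon cancer, in 6 groups of 3 libraries. Cells received a scramble siRNA or an siRNA against Lonp1 (siLonp1), a protease of the mitochondrial matrix, and stayed at 37 °C (Ctrl), spent 1 h at 42 °C (HS), or spent 1 h at 42 °C followed by 1 h of recovery at 37 °C (HS+REC). All groups are of this 1 line and all were transfected, so the scramble libraries are not untransfected cells. Which of the study's Lonp1 siRNAs was used for these libraries is not given in the sources used here, and the study names its replicates as independent.

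Library totals lay between 30815860 and 47279297 counts, the lowest being HS scramble replicate 3. That library stood apart in its group: over all genes, chi-square per degree of freedom was 14.6 and 18.2 against replicates 1 and 2, which gave 3.98 between them, and its summed level of proteasome genes was 6779.9 CPM against 6221.2 and 6015.4 CPM. In HS siLonp1, replicate 1 stood apart likewise, with 13.8 and 12.7 against replicates 2 and 3, which gave 3.4 between them. Its summed level was 6712.9 CPM against 6174.7 and 6316.7 CPM. In both HS+REC groups each pair of replicates gave 14.2 or more. The 46 proteasome genes took 0.599 to 0.722% of the counts of a library. LONP1 itself was at 214 to 225 CPM in Ctrl scramble and at 19.4 to 22.4 CPM in Ctrl siLonp1, and silencing changed it by a log2 value of -3.43 without heat, -4.19 after HS and -3.01 after HS+REC. KRT8 (4921 CPM on average in Ctrl scramble), KRT18 (2735 CPM), EPCAM (379 CPM) and VIL1 (348 CPM) marked the cells as epithelial, whereas KRT20 (0.472 CPM) and CEACAM5 (2.46 CPM), markers of mature colon cells, were near 0. CDX2, a transcription factor of the intestine, and CDH17, an intestinal cadherin, averaged 29.5 and 10.3 CPM. These colon markers moved with siLonp1: CDX2 by -0.90, -1.38 and -1.07 on the log2 scale in Ctrl, HS and HS+REC, CDH17 by -3.12, -3.41 and -3.11, and CEACAM5 by -1.38, -1.48 and -1.38, while KRT20 was raised by 1.03, 1.07 and 0.91. Of the 8 colon markers, siLonp1 raised 1 and lowered 3 in Ctrl, raised 4 and lowered 3 in HS, and raised 1 and lowered 4 in HS+REC, and their part in the siLonp1 results on proteasome genes was not tested. Of 8 markers of other cell types, 7 were under 1 CPM in every library. The eighth, COL1A1, averaged 9.20 CPM in unheated scramble cells, 17.0 CPM after HS and 30.1 CPM after HS+REC. The summed level of the list was 8.14 to 9.99 CPM in the Ctrl scramble libraries and 29.7 to 30.9 CPM in those of HS+REC scramble, and without COL1A1 it was 0.0972 to 0.264 CPM and 0.192 to 0.441 CPM. Its part in the results with heat was not tested.

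Proteasome genes were expressed well above most genes. Their median level in Ctrl scramble was 139.7 CPM, against 28.71 CPM for the 12832 genes tested. The highest was PSMD2, the base scaffold Rpn1, at 333.3 CPM, and the lowest was PSMB9, the inducible form of the caspase-like catalytic subunit, at 1.93 CPM. Levels between genes were compared per kb of transcript, on the scale of CPM per kb. On that scale PSMA7 led with 343 CPM per kb, followed by PSMB6 with 259 and PSMB1 with 219. The 7 core beta genes had a median of 192.4 CPM per kb, with PSMB2 lowest at 43.8, and the 7 alpha genes had a median of 124.6, with PSMA5 lowest at 32.0. The medians were 61.62 CPM per kb for the 6 ATPases of the 19S base, 114.4 for the 3 other base subunits, 89.45 for the 8 lid subunits, 81.65 for the 5 activators and regulators, and 34.55 for the 7 assembly chaperones. These levels assume the length of 1 reference transcript per gene.

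**Figure D1:**
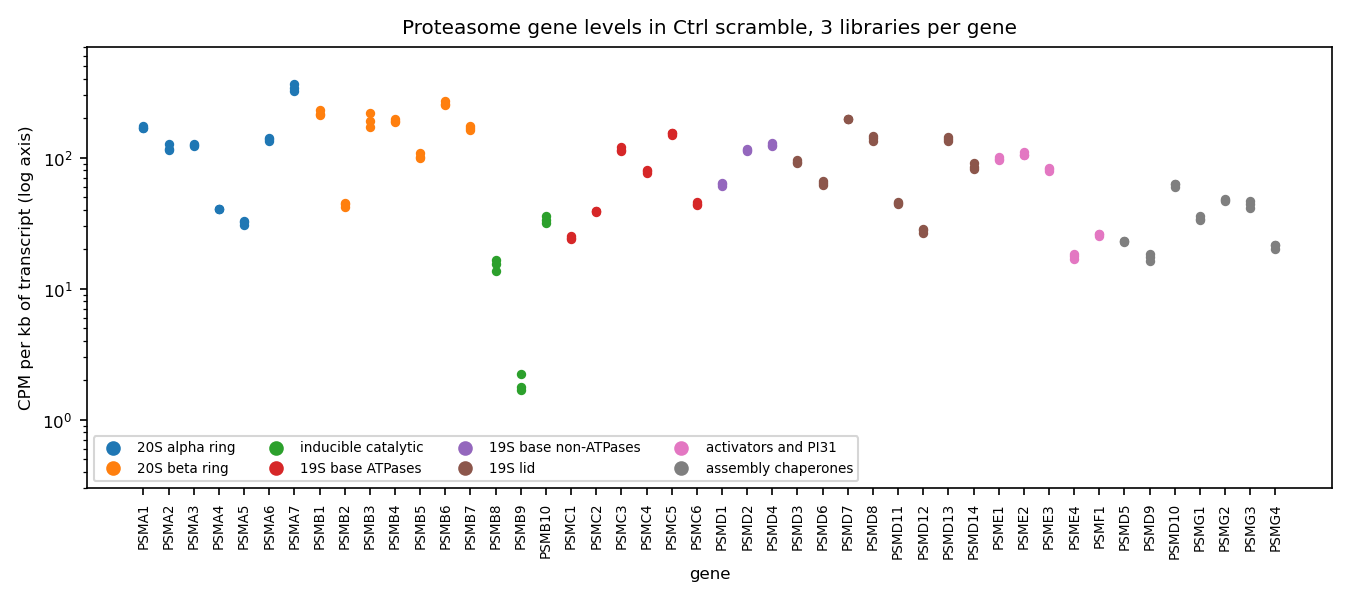
Level of each of the 46 proteasome genes in the 3 Ctrl scramble libraries (dots), in CPM per kb of transcript on a log axis, coloured by role. The replicates of a gene lie close together, PSMA7 is highest at 343, core genes hold 7 of the 8 highest places, lid gene PSMD7 is among them at 197, and PSMB9 stands lowest at 1.90.

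The inducible catalytic genes were far below their constitutive counterparts. Per kb of transcript, PSMB9 was at 0.735% ± 0.134 (SD, n = 3) of PSMB6 in Ctrl scramble, PSMB10 at 19.9% ± 0.899 of PSMB7, and PSMB8 at 14.7% ± 0.847 of PSMB5. In Ctrl siLonp1 the shares were 0.514% ± 0.0652, 14.9% ± 0.718 and 11.5% ± 0.288. For each of the 3 pairs, every Ctrl siLonp1 library was below every Ctrl scramble library. In HS the share of PSMB8 overlapped (12.71 to 14.99% in scramble and 12.33 to 13.16% in siLonp1), and in HS+REC that of PSMB9 did (0.538 to 0.776% and 0.434 to 0.546%), while that of PSMB10 did not overlap in any condition. With 1 library left out, the call of PSMB8 in Ctrl was kept in 2 of 6 fits and that of PSMB9 in HS+REC in 3 of 6. PSMB8 and PSMB9 lie beside each other on chromosome 6 (hg38, 32840717 to 32844679 on the minus strand and 32844136 to 32859851 on the plus strand), and their exons overlap on opposite strands. The strand setting of the counting is not given in the sources used here, so part of the reads of either may belong to the other.

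Promoter sequences are shown for 4 genes whose changes are described in the next paragraphs: PSMD6, which fell with heat and came back, PSMD5 and PSMB10, which were lower with siLonp1, and PSMD9, which was higher with it. They are RefSeq sequences of GRCh38.p14, in the direction of transcription, and each starts 200 bases before an annotated RefSeq start. Where exons of a coding gene begin before the RefSeq start, the sequence ends before them, or at the end of a match that runs into them. The annotated span of PSMD6 reaches base 64024010, so its sequence lies before an internal start and within the gene. Capitals mark 4 short patterns, searched on both strands. Paired units of the heat shock element were searched as GAANNTTC and TTCNNGAA, the core of the antioxidant response element, which NFE2L1 and NFE2L2 bind, as TGACNNNGC, and the CCAAT box as CCAAT. The core of the interferon-stimulated response element (GAAA, any 2 bases and GAAA again) was added after the PSMB10 sequence had been seen.
PSMD6 (chr3:64023495-64023694, minus strand): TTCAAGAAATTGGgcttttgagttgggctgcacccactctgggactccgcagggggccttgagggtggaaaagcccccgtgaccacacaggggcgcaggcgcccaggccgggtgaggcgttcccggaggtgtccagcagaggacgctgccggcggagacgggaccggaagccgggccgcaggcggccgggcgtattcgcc
PSMD5 (chr9:120842952-120843122, minus strand): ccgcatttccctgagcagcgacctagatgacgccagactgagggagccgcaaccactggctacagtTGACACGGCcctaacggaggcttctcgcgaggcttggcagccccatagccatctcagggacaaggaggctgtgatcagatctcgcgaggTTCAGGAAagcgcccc
PSMB10 (chr16:67936862-67937050, minus strand): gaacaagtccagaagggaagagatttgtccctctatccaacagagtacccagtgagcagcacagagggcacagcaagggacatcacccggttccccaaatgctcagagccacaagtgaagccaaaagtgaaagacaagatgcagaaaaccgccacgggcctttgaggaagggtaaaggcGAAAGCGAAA
PSMD9 (chr12:121888590-121888731, plus strand): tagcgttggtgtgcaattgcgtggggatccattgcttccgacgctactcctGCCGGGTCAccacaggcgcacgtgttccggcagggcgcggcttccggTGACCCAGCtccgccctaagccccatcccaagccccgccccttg

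The window of 250 bases before the start was searched for the 40 members with an entry. PSMA7, PSMB1, PSMB6, PSMB7, PSMD4 and PSMG3 had none. The heat shock pattern was found in PSMD6 (from 200 bases before the start, next to an inverted CCAAT box), PSMD5 (from 45 bases before) and PSMB5 (1 of its entries, from 85 bases before). That is 3 of 40 members and 3 of their 49 windows (6.12%), against 11.6% of all 35116 windows. The antioxidant pattern was found in 13 of 40 members and 26.5% of member windows, against 10.9% of all windows. These 13 include PSMD5 and PSMD9, the latter with 2 matches, and also PSMD12, PSME4 and PSMB9. The interferon pattern was found in PSMB10, PSME2, PSMG4, PSMB4 and PSMA4, which is 10.2% of member windows against 3.02% of all. CCAAT was found in 36.7% of member windows against 32.0% of all. A match gives the presence of these letters and no binding.

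Differences between groups are given as log2 fold changes with their standard error (SE) from 1 edgeR quasi-likelihood model of all 18 libraries. A gene is called raised or lowered at an adjusted p (Benjamini-Hochberg over the 12832 genes tested) of at most 0.05, at any fold change. In no comparison was a proteasome gene called at more than 2-fold (0.366 to 4.51% of all genes were, in 1 direction, across the comparisons between groups), and the largest change was -0.64 on the log2 scale, for PSMB9. Where the libraries of both groups are said not to overlap, the same held for 16.4 to 33.6% of all genes in 1 direction, depending on the comparison. Across the 9 comparisons between groups there were 106 calls, spread over 37 of the 46 genes (80.4%, against 89.7% of all genes tested), and 25.6% of the pairs of member and comparison were called, against 43.2% over all genes. The 9 that were never called were PSMA2, PSMA3, PSMA5, PSMB1, PSMB4, PSMB6, PSMD1, PSMD3 and PSMD13, all structural subunits except PSMB6, which is catalytic.

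**Figure D2:**
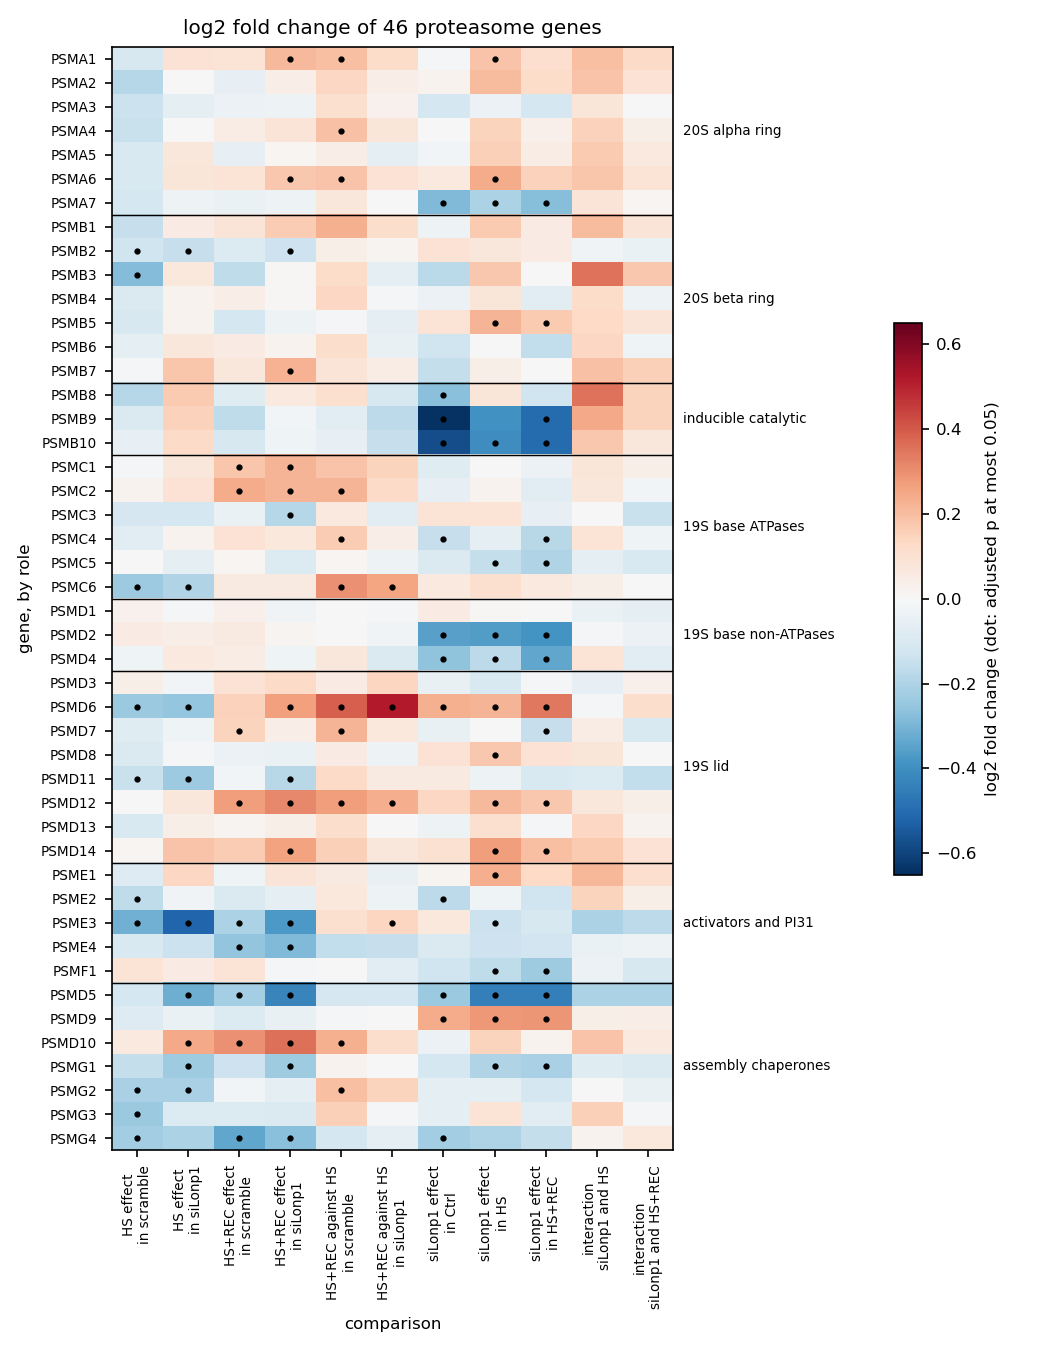
Log2 fold change (colour) of the 46 proteasome genes (rows, by role) in the 9 comparisons between groups and the 2 interactions (columns), with a dot where the adjusted p was at most 0.05. The colours are pale for most genes, no interaction carries a dot, and the deepest colours are those of PSMB9 and PSMB10 under siLonp1, PSME3 under HS and PSMD6 in HS+REC against HS.

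Heat shock for 1 h lowered a minority of proteasome genes and raised few. In scramble cells 10 of 46 were lowered (17.3% of all genes tested were lowered) and 0 were raised (18.6% of all genes tested), with 14 genes at an unadjusted p under 0.05. DESeq2 also raised 0. In siLonp1 cells 8 were lowered (22.1% of all genes) and 1, PSMD10, was raised (20.2% of all genes). The raised count in siLonp1 was 3 with DESeq2, 3 without a filter on low values, 4 with a CPM above 1 in every library and 4 in a fit of only the groups compared. The median log2 fold change of the 46 genes was -0.10 in scramble, where 37 values were under 0, and 0.01 in siLonp1, against -0.01 and 0.00 for all genes. The values of the members were also narrow, with an SD over genes of 0.0936 in scramble and 0.149 in siLonp1, against 0.502 and 0.549 for all genes. The scramble median stayed below 0 under every scaling tried, whereas that of siLonp1 changed sign with library sizes alone (-0.04) and with GC and length offsets (-0.03), and was -0.03 without HS siLonp1 replicate 1. The median of all genes in siLonp1 was -0.05 with library sizes alone and -0.003 with the offsets. The difference in the median log2 CPM of the 46 genes between 2 single libraries of a group had an SD of 0.0991. The scramble median compares means of 3 libraries, whose spread is smaller, so its size cannot be read directly against that SD. The 6 genes PSMB2, PSMC6, PSMD6, PSMD11, PSME3 and PSMG2 were lowered in both arms, which is 6 of the 10 in scramble and 6 of the 8 in siLonp1. That is 6 of 46 genes, and 13% of all genes tested were lowered in both arms. Each arm has its own control libraries.

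PSME3 showed the largest response to heat. It encodes PA28 gamma, the nuclear activator of the core. Its 3 libraries had 267, 253 and 260 CPM in Ctrl scramble, against 216, 202 and 210 CPM after HS. With siLonp1 they had 271, 270 and 275 CPM in Ctrl and 190, 193 and 188 CPM in HS. All HS libraries were below all Ctrl libraries in both arms. The log2 fold change was -0.31 (SE 0.0515, adjusted p = 4.27e-05) in scramble and -0.52 (SE 0.0517, adjusted p = 2.04e-08) in siLonp1. The difference between the arms was -0.20 (SE 0.0729, adjusted p = 0.166 in edgeR). In HS+REC it was at 235, 224 and 217 CPM in scramble and 199, 216 and 214 CPM in siLonp1, still under each Ctrl library (-0.21, adjusted p = 0.00237, and -0.37, adjusted p = 1.78e-06, in edgeR). An exon of PSME3 overlaps BECN1 on the opposite strand. These 4 calls were kept under every left-out library and under each of 9 other settings at this threshold.

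PSMD6, the lid subunit Rpn7, fell in HS and rose again in recovery. It was at 91.0, 88.1 and 84.4 CPM in unheated scramble cells, 72.5, 68.7 and 82.4 CPM after HS and 88.7, 102 and 102 CPM after HS+REC. With siLonp1 the same conditions gave 98.0, 101 and 110 CPM, then 93.5, 81.9 and 84.3 CPM, then 124, 130 and 118 CPM. The HS libraries were the lowest in each arm, with no overlap with Ctrl or HS+REC. The HS effect was -0.24 (SE 0.0738, adjusted p = 0.0138) in scramble and -0.25 (SE 0.0735, adjusted p = 0.00818) in siLonp1. From HS to HS+REC the change was 0.39 (SE 0.0737, adjusted p = 0.000281) in scramble and 0.51 (SE 0.0734, adjusted p = 6.53e-06) in siLonp1, the largest of the recovery comparison in both arms. Its promoter is the one printed with the heat shock pattern at the far end. PSMD6 shares exon positions with PSMD6-AS2 on the other strand. In siLonp1 cells PSMD6 in HS+REC stood above Ctrl (0.26, SE 0.0731, adjusted p = 0.00414), and in scramble it did not pass (0.15, adjusted p = 0.109, in edgeR).

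PSMC6, the ATPase Rpt4, also fell in HS and rose in recovery in both arms. Its levels were 99.2, 95.5 and 93.9 CPM in unheated scramble cells, 79.1, 74.0 and 91.9 CPM after HS and 93.3, 110 and 97.7 CPM after HS+REC. The change was -0.24 (SE 0.0726, adjusted p = 0.0129) with HS and 0.30 (SE 0.0726, adjusted p = 0.0032) from HS to HS+REC. In siLonp1 cells the libraries had 101, 97.8 and 102 CPM in Ctrl, 90.8, 86.4 and 85.8 CPM in HS and 102, 112 and 99.1 CPM in HS+REC, and the changes were -0.20 (SE 0.0725, adjusted p = 0.0322) and 0.26 (SE 0.0725, adjusted p = 0.00837). PSMC6 in HS+REC did not differ detectably from Ctrl in scramble (0.06, interval -0.09 to 0.21) or in siLonp1 (0.06, interval -0.09 to 0.21).

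PSMB3, a non-catalytic beta subunit, and PSMG3, the chaperone PAC3, were lowered in HS scramble by more than PSMD6 and PSMC6 and by less than PSME3. PSMB3 was at 131, 168 and 145 CPM in Ctrl scramble, against 110, 111 and 144 CPM after HS, so the groups overlapped (-0.28, SE 0.105, adjusted p = 0.0375). The call was kept in 2 of 6 fits with 1 library left out, and the value was -0.18 without Ctrl scramble replicate 2. PSMG3 was at 58.6, 66.9 and 63.7 CPM in Ctrl scramble, against 51.6, 50.8 and 58.0 CPM after HS (-0.24, SE 0.0745, adjusted p = 0.0141). Neither was called in siLonp1 cells, where the values were 0.07 and -0.09. PSMB3 had the largest difference between the arms (0.35, SE 0.148), which did not pass adjustment (adjusted p = 0.25 in edgeR). HS scramble replicate 3 was the highest of its group for PSMB3, PSMG3, PSMD6 and PSMC6.

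By role, the fall in HS scramble was seen in 3 of 7 assembly chaperones (PSMG2, PSMG3 and PSMG4, 3 of the 4 chaperones of the alpha ring), 2 of 5 activators and regulators (PSME2 and PSME3), 2 of 7 beta genes (PSMB2 and PSMB3), 2 of 8 lid genes (PSMD6 and PSMD11) and 1 of 6 ATPases (PSMC6). None of the 7 alpha genes and none of the 3 inducible catalytic genes was called with HS in either arm. The alpha genes had values from -0.18 to -0.10 in scramble and from -0.06 to 0.09 in siLonp1. Since each alpha gene had a negative value in scramble, they were uniform in sign without passing the test. The count of 10 depended on single libraries: it was 1 without HS scramble replicate 2 and 14 without HS scramble replicate 3. PSME3 was the gene still called in that first case. PSME3 was also the 1 of the 10 scramble calls kept in all 6 fits with 1 library left out. PSMG2 was kept in 4 of them, PSMC6, PSMD6 and PSMG3 in 3, PSMB3 in 2, PSMB2, PSMD11 and PSME2 in 1 and PSMG4 in 0. In siLonp1, PSMD5, PSMD11 and PSME3 were kept in all 6, and PSMC6 in 2. GC and length offsets gave 22 lowered genes in scramble (47.8% of the members, against 28.3% of all genes) and 15 in siLonp1 (32.6% against 27.3%).

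**Figure D3:**
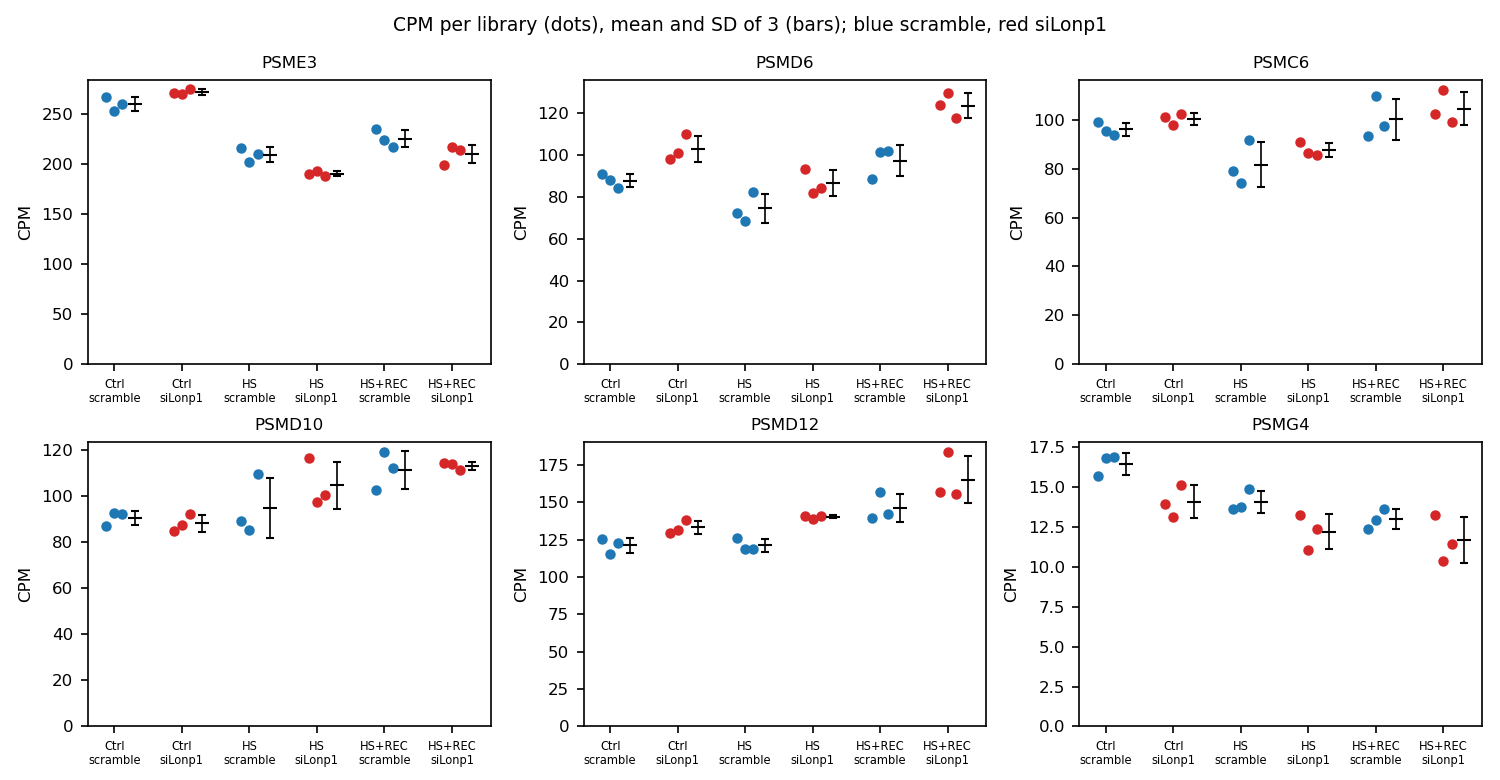
CPM in each library (dots, blue scramble and red siLonp1) of PSME3, PSMD6, PSMC6, PSMD10, PSMD12 and PSMG4 in the 6 groups, with the mean and SD of 3 libraries beside them and axes from 0. PSME3 drops in HS in both arms, PSMD6 and PSMC6 drop in HS and return in HS+REC, PSMD10 and PSMD12 are highest in HS+REC, and PSMG4 is lower after heat.

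After 1 h of recovery some genes stood above the unheated level and some below it. Against Ctrl, 5 genes were raised (21.8% of all genes) and 4 lowered (20.5%) in scramble, and 9 were raised (24.6%) and 8 lowered (26.6%) in siLonp1. The median of the 46 was 0.00 in scramble and 0.01 in siLonp1. PSMC1 and PSMC2, ATPases of the base, PSMD10, the base chaperone gankyrin, and PSMD12, the lid subunit Rpn5, were raised in both arms. The scramble call of PSMC1 was kept in 1 of 6 fits with 1 library left out, and it was not called with RLE size factors (0.17) or library sizes alone (0.10). With library sizes alone PSMC1 was not called in siLonp1 either (0.14). PSMD5, PSME3, PSME4 and PSMG4 were lowered in both. These are 4 of 46 genes in each direction, where 18.2% of all genes were raised and 17.4% lowered in both arms. With library sizes alone, the scramble split was 3 raised and 8 lowered (16.3 and 30.4% of all genes), and the siLonp1 split 5 raised and 10 lowered (18.8 and 34.7% of all genes).

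PSMD10 had 87.1, 92.5 and 92.0 CPM in Ctrl scramble, against 102, 119 and 112 CPM in HS+REC scramble. In siLonp1 cells it had 84.9, 87.4 and 92.2 CPM in Ctrl, 116, 97.1 and 100 CPM in HS and 114, 114 and 111 CPM in HS+REC. Each HS+REC library was above each Ctrl library of its arm. The log2 fold change in HS+REC was 0.30 (SE 0.0804, adjusted p = 0.00459) in scramble and 0.36 (SE 0.0807, adjusted p = 0.000661) in siLonp1. In HS itself it was 0.06 in scramble and 0.25 (SE 0.0808, adjusted p = 0.0165) in siLonp1, where it was 0.16 and not called without HS siLonp1 replicate 1 and was also not called without Ctrl siLonp1 replicate 1. The arms did not differ detectably (difference 0.18, interval -0.05 to 0.42).

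PSMD12 was at 125, 115 and 123 CPM in unheated scramble cells, 126, 119 and 119 CPM after HS and 140, 157 and 142 CPM after HS+REC. With siLonp1 it was at 130, 132 and 138 CPM in Ctrl, 140, 139 and 141 CPM in HS and 157, 183 and 155 CPM in HS+REC. Its HS effect was 0.00 and 0.07, not called, and its HS+REC effect was 0.27 (SE 0.0643, adjusted p = 0.00142) in scramble and 0.31 (SE 0.0643, adjusted p = 0.000295) in siLonp1. PSMC2 gained 0.24 (adjusted p = 0.00231) in scramble and 0.22 (adjusted p = 0.00377) in siLonp1 in edgeR. PSMC2 shares exon positions with PMPCB on the same strand and PSMC1 with NRDE2, so their reads may be mixed.

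PSMG4, the chaperone PAC4, was the most lowered gene in HS+REC scramble. Its libraries had 15.7, 16.8 and 16.9 CPM in Ctrl scramble, against 12.4, 13.0 and 13.6 CPM in HS+REC scramble, with no overlap. With siLonp1 it had 13.96, 13.1 and 15.2 CPM in Ctrl and 13.2, 10.3 and 11.4 CPM in HS+REC, and these groups overlapped. The log2 fold change was -0.34 (SE 0.0877, adjusted p = 0.00299) in scramble and -0.27 (SE 0.0901, adjusted p = 0.0153) in siLonp1. PSME4, which encodes the cap PA200, was at 129, 122 and 133 CPM in Ctrl scramble, against 113, 113 and 95.3 CPM in HS+REC scramble. It fell by 0.26 (SE 0.0762, adjusted p = 0.00858) in scramble and by 0.29 (SE 0.0765, adjusted p = 0.00294) in siLonp1. PSMG4 shares exon positions with SLC22A23 and TUBB2B, and PSME4 with ACYP2.

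From HS to HS+REC some proteasome genes rose, 11 in scramble and 4 in siLonp1. The counts depended on the processing, with 4 in scramble in a fit of only the groups compared, and with 19 in scramble and 11 in siLonp1 under GC and length offsets. In scramble 11 genes were raised (14.2% of all genes) and 0 lowered (12.7% of all genes), with a median of 0.10 against 0.01 for all genes and 38 of 46 values above 0. The median was 0.05 without HS scramble replicate 2 and 0.145 without HS scramble replicate 3. The SD of 0.0991 given above is for 2 single libraries of a group, not for means of 3. There were 16 genes at an unadjusted p under 0.05, and DESeq2 also lowered 0. In siLonp1 4 were raised (16.3% of all genes) and 0 lowered (15.6% of all genes), with a median of 0.00 and 24 of 46 values above 0. With library sizes alone that median was -0.03, against -0.04 for all genes. PSMC6, PSMD6 and PSMD12 were raised in both, which is 3 of 46 genes, where 10.4% of all genes were. Without HS+REC siLonp1 replicate 2 the siLonp1 value of PSMD12 was 0.15 and was not called, and without HS+REC scramble replicate 2 the scramble value of PSMA6 was 0.12 and was not called. The 11 raised genes of scramble included 3 of 7 alpha genes (PSMA1, PSMA4 and PSMA6), 3 of 6 ATPases (PSMC2, PSMC4 and PSMC6) and 3 of 8 lid genes (PSMD6, PSMD7 and PSMD12). This comparison uses the same HS libraries as that of HS against Ctrl, so the fall and the return are not independent measurements. The count of 11 was 4 without HS scramble replicate 2 and 17 without HS scramble replicate 3. With library sizes alone the split was 5 raised and 2 lowered in scramble, and the raised share of 10.9% was then close to the 10.1% of all genes. GC and length offsets gave 19 raised and 0 lowered in scramble (41.3% raised, against 25.5% of all genes) and 11 raised and 1 lowered in siLonp1 (23.9% raised, against 23.1%). Of the 11 scramble calls, PSMC6, PSMD6, PSMD7 and PSMD12 were kept in each fit with 1 library left out, and PSMD6 was the 1 of the 4 in siLonp1. PSMA6 was kept in 2 of 6 such fits and in 3 of 9 other settings.

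**Figure D4:**
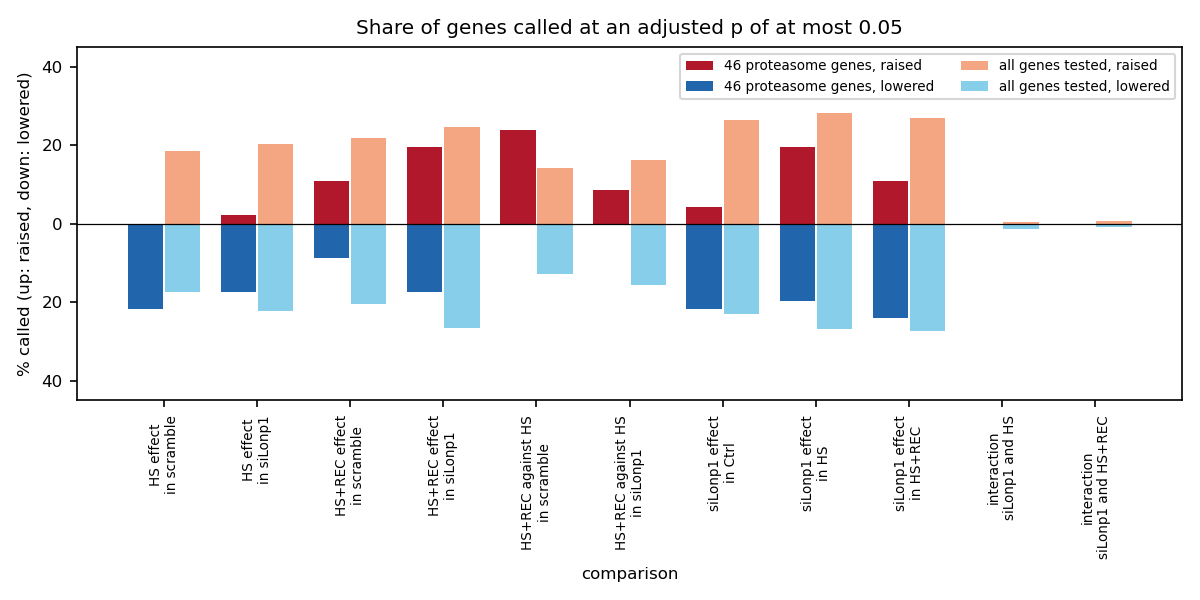
Share of genes called raised (upward bars) and lowered (downward bars) in each comparison, in %, for the 46 proteasome genes (dark red and blue) and all 12832 genes tested (pale). The raised share of the proteasome genes is 0 with HS in scramble against 18.6% of all genes, and in most comparisons both of its bars are the shorter ones, except for genes raised in HS+REC against HS in scramble and lowered with HS in scramble.

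Silencing of Lonp1 changed between 12 and 18 of the 46 genes in each condition. In Ctrl 2 genes were raised (26.3% of all genes) and 10 lowered (22.9%), in HS 9 raised (28.1%) and 9 lowered (26.7%), and in HS+REC 5 raised (26.8%) and 11 lowered (27.3%). The medians were -0.05, 0.03 and -0.06. Those of Ctrl and HS+REC turned positive with GC and length offsets (0.06 and 0.02), and that of HS turned negative with library sizes alone (-0.07). The medians of all genes were then 0.06, 0.05 and -0.10, so they moved in the same direction. The HS median of the members was also -0.0154 without HS scramble replicate 2. With library sizes alone the splits became 0 raised and 18 lowered in Ctrl, 2 and 15 in HS and 2 and 21 in HS+REC. The lowered shares of the members were then 39.1, 32.6 and 45.7%, against 30.4, 37 and 34.6% of all genes, so in Ctrl and HS+REC they stood above the share of all genes. With GC and length offsets the splits became 15 and 7, 23 and 9, and 13 and 11. Raised members were then 32.6, 50 and 28.3%, against 37.7, 40.8 and 36.8% of all genes. Lowered members were 15.2, 19.6 and 23.9%, against 22.9, 23.9 and 26.8%. Calls in either direction then covered 47.8, 69.6 and 52.2% of the members, against 60.6, 64.7 and 63.6% of all genes, whereas without the offsets they covered 26.1, 39.1 and 34.8% against 49.2, 54.8 and 54.1%. Which share is the larger thus turned round in HS. Under these scalings each called gene kept its direction, except PSME3 in HS. Summed over the 46 genes, the share of counts was 0.708% ± 0.0133 (SD, n = 3) in Ctrl scramble and 0.649% ± 0.0129 in Ctrl siLonp1, and the libraries of both groups did not overlap. In HS it was 0.628 to 0.697% in scramble and 0.599 to 0.647% in siLonp1, which overlapped, and in HS+REC 0.661 to 0.694% and 0.613 to 0.630%. After TMM scaling the summed CPM averaged 6710.9 ± 111 (SD, n = 3) and 6477.6 ± 124 in Ctrl, 6338.8 ± 395.6 and 6401.4 ± 278.9 in HS, and 6813.5 ± 196.3 and 6569.3 ± 158.4 in HS+REC, and the groups overlapped in HS and HS+REC.

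In the 3 conditions, which share no libraries, PSMA7, PSMB10, PSMD2, PSMD4 and PSMD5 were lowered each time and PSMD6 and PSMD9 raised each time, which is 5 of 46 and 2 of 46 where 16% and 18.1% of all genes were called so. The same sign in all 3 was found for 28 of the 46 genes (60.9%), against 75.3% of all genes. PSMD4 and PSMA7 in HS kept their call in 3 of 6 fits with 1 library left out (not without HS scramble replicate 3, HS siLonp1 replicate 2 or replicate 3), as did PSMD6 in HS (not without HS scramble replicate 1, replicate 2 or HS siLonp1 replicate 1). PSMD2 was the most precisely measured. It had 329, 339 and 332 CPM in Ctrl scramble and 271, 247 and 265 CPM in Ctrl siLonp1. In HS it had 354, 339 and 345 CPM in scramble and 267, 269 and 271 CPM in siLonp1. In HS+REC the values were 350, 337 and 354 CPM and 268, 261 and 265 CPM. Each siLonp1 library was below each scramble library of its condition. The log2 fold changes were -0.35 (SE 0.0492, adjusted p = 3.63e-06) in Ctrl, -0.37 (SE 0.0493, adjusted p = 1.77e-06) in HS and -0.39 (SE 0.0492, adjusted p = 6.52e-07) in HS+REC. Under 9 other settings the HS value lay between -0.46 and -0.22, and each kept the call. PSMD2 did not move detectably with heat in either arm (0.05 in scramble, interval -0.05 to 0.16, and 0.04 in siLonp1, interval -0.06 to 0.14). PSMD4, the ubiquitin receptor Rpn10 of the base, was also lower, by 0.26, 0.17 and 0.34 on the log2 scale in the 3 conditions.

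PSMB10, the inducible trypsin-like subunit, was lower in siLonp1 in each condition. Its libraries had 31.1, 35.1 and 32.5 CPM in Ctrl scramble and 24.5, 20.1 and 21.7 CPM in Ctrl siLonp1. In HS they had 30.2, 29.8 and 35.5 CPM in scramble and 26.0, 21.7 and 24.4 CPM in siLonp1, and in HS+REC 29.8, 27.2 and 35.0 CPM and 22.2, 18.5 and 24.2 CPM. The groups did not overlap in any condition. The log2 fold changes were -0.58 (SE 0.104, adjusted p = 8.4e-05), -0.40 (SE 0.104, adjusted p = 0.00235) and -0.50 (SE 0.104, adjusted p = 0.000328). Heat itself gave -0.05 in scramble and 0.12 in siLonp1, which were not called. The PSMB10 calls were kept without any 1 library and under each of 9 other settings at this threshold. Its promoter is the one printed with the interferon pattern next to the start.

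PSMB9 was the gene with the largest change under siLonp1 in Ctrl, at a low level. In HS the largest was that of PSMD5 (-0.44), and in HS+REC that of PSMB10 (-0.50). PSMB9 had 1.70, 1.81 and 2.28 CPM in Ctrl scramble and 1.19, 1.38 and 1.12 CPM in Ctrl siLonp1 (-0.64, SE 0.169, adjusted p = 0.00319). In HS the libraries had 1.64, 1.77 and 2.05 CPM in scramble and 1.36, 1.47 and 1.28 CPM in siLonp1 (-0.40, SE 0.17, adjusted p = 0.0529). In HS+REC they had 1.65, 1.97 and 1.56 CPM and 1.45, 1.09 and 1.098 CPM (-0.50, SE 0.172, adjusted p = 0.0179). PSMB9 was lower in siLonp1 without overlap in each condition, and the value in HS missed the threshold.

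PSMB8, the inducible chymotrypsin-like subunit, was at 15.4, 18.5 and 17.4 CPM in Ctrl scramble and 14.9, 13.6 and 13.99 CPM in Ctrl siLonp1 (-0.27, SE 0.0969, adjusted p = 0.0226). In HS it was at 14.8, 13.0 and 17.6 CPM in scramble and 16.6, 15.6 and 15.5 CPM in siLonp1, and in HS+REC at 15.1, 15.8 and 17.6 CPM and 16.2, 13.7 and 14.5 CPM. Those groups overlapped (0.08 and -0.13, not called). The HS effect on PSMB8 had a difference of 0.35 (SE 0.138) between the arms, which did not pass adjustment (adjusted p = 0.211 in edgeR).

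None of the constitutive catalytic genes was called lowered by siLonp1. PSMB5, the chymotrypsin-like subunit, had 104, 114 and 105 CPM in unheated scramble cells, 96.8, 95.4 and 109 CPM after HS and 99.2, 92.9 and 107 CPM after HS+REC. In siLonp1 it had 121, 107 and 116 CPM, then 123, 110 and 117 CPM, then 118, 103 and 115 CPM. It was raised in HS (0.22, SE 0.0711, adjusted p = 0.0121) and in HS+REC (0.17, SE 0.071, adjusted p = 0.0443), where the groups overlapped, and not called in Ctrl (0.09). These calls were kept in 3 and 2 of 6 fits with 1 library left out, and with library sizes alone neither was called (0.12 and 0.10). PSMB6, the caspase-like subunit, had 210, 222 and 208 CPM in Ctrl scramble and 209, 191 and 185 CPM in Ctrl siLonp1. In HS it had 201, 198 and 215 CPM and 217, 196 and 202 CPM, and in HS+REC 224, 206 and 234 CPM and 215, 175 and 205 CPM. PSMB6 was not called in any comparison, with siLonp1 values of -0.13, 0.00 and -0.16. PSMB7, the trypsin-like subunit, had 166, 172 and 161 CPM in Ctrl scramble and 157, 140 and 151 CPM in Ctrl siLonp1. In HS it had 157, 154 and 184 CPM and 183, 158 and 167 CPM, and in HS+REC 168, 172 and 185 CPM and 189, 160 and 176 CPM. Under siLonp1 its values were -0.15 (adjusted p = 0.0961 in edgeR, interval -0.31 to 0.00) in Ctrl, where each siLonp1 library was below each scramble library, 0.04 in HS and 0.00 in HS+REC. Its 1 call was a rise in HS+REC against Ctrl in siLonp1 (0.23, SE 0.075, adjusted p = 0.0138). That call was kept in 4 of 6 fits with 1 library left out, and with library sizes alone PSMB7 was not called (0.14).

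**Figure D5:**
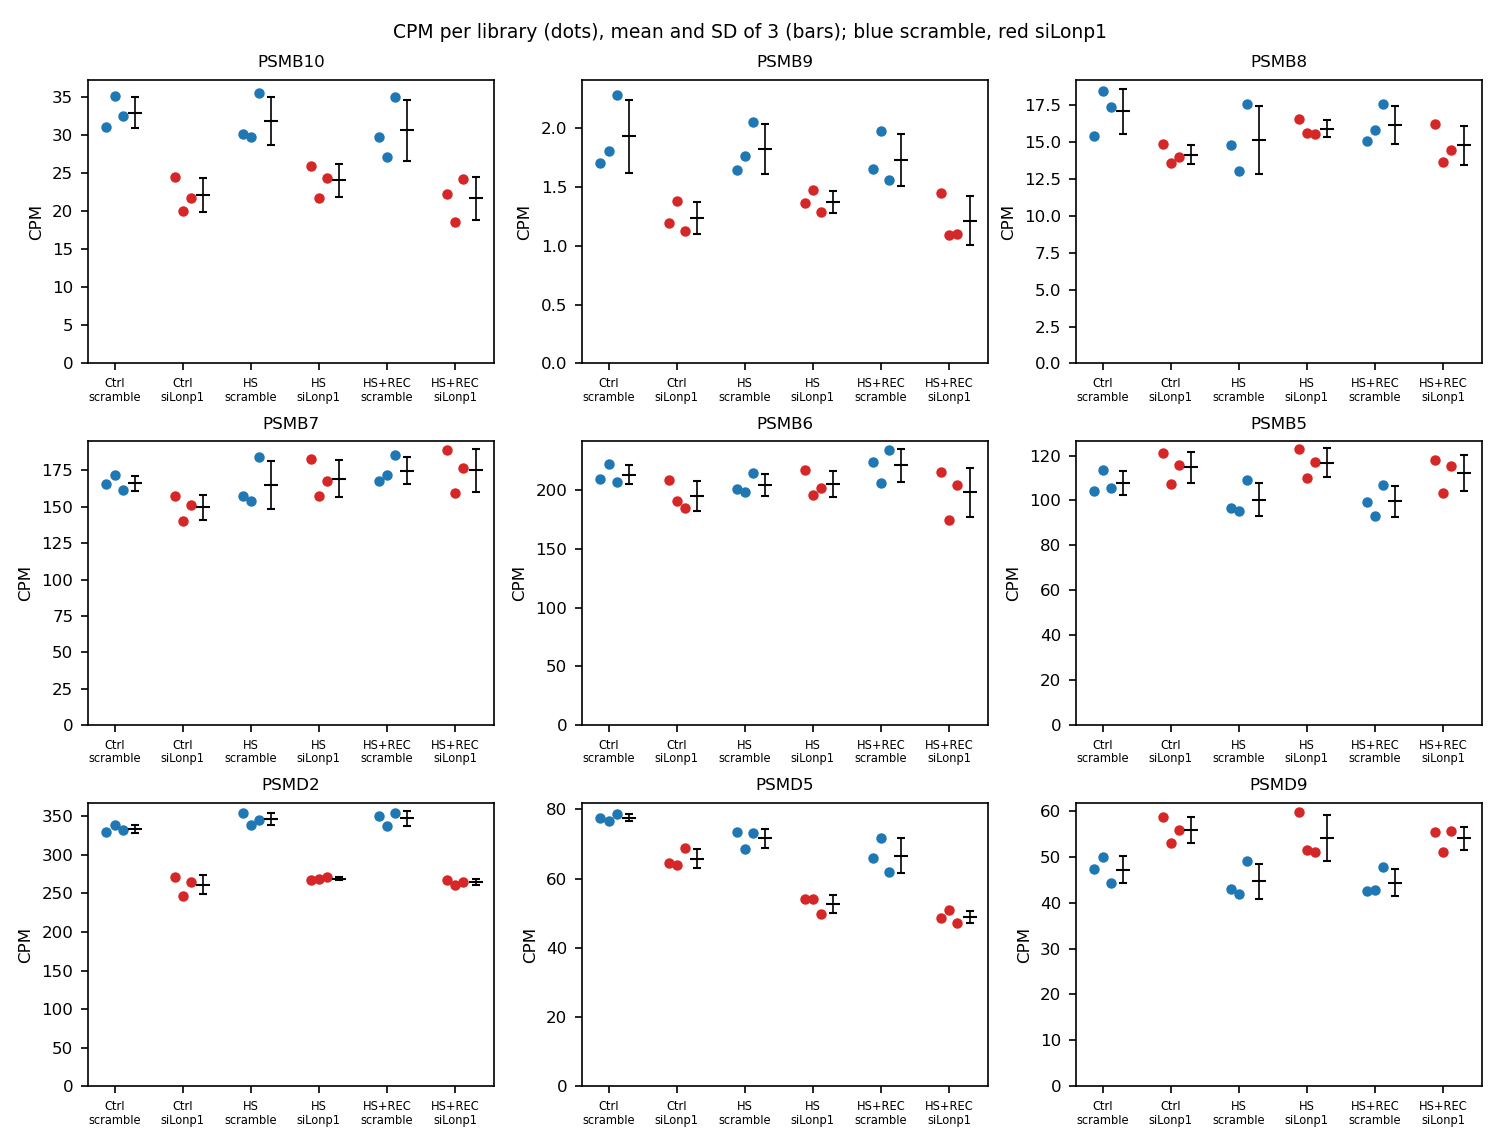
CPM in each library (dots, blue scramble and red siLonp1) of the inducible catalytic genes PSMB10, PSMB9 and PSMB8, their constitutive counterparts PSMB7, PSMB6 and PSMB5, and PSMD2, PSMD5 and PSMD9, with the mean and SD of 3 libraries and axes from 0. PSMB10, PSMB9, PSMD2 and PSMD5 are lower in siLonp1 in each condition, PSMD9 is higher, PSMB7 is lower in Ctrl and overlaps in HS and HS+REC, and PSMB6 and PSMB5 overlap between the arms in Ctrl.

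PSMD5 and PSMD9, both chaperones of the 19S base, moved in opposite directions under siLonp1. PSMD5 had 77.6, 76.6 and 78.6 CPM in Ctrl scramble and 64.4, 63.8 and 68.9 CPM in Ctrl siLonp1. In HS it had 73.3, 68.5 and 73.1 CPM in scramble and 54.2, 54.0 and 49.8 CPM in siLonp1, and in HS+REC 66.0, 71.8 and 61.8 CPM and 48.5, 50.8 and 47.3 CPM. The siLonp1 libraries were below the scramble libraries in each condition, and within siLonp1 the level was lower after heat. The siLonp1 effect was -0.24 (SE 0.061, adjusted p = 0.00235) in Ctrl, -0.44 (SE 0.0617, adjusted p = 2.62e-06) in HS and -0.45 (SE 0.0617, adjusted p = 2.46e-06) in HS+REC. Heat lowered PSMD5 in siLonp1 (-0.32, SE 0.0617, adjusted p = 0.000183), and its value in scramble, -0.12 (SE 0.0609, adjusted p = 0.148), was not called. Recovery gave -0.43 (SE 0.0618, adjusted p = 3.64e-06) and -0.22 (SE 0.0609, adjusted p = 0.0049). The differences between the arms were -0.20 (SE 0.0867) for HS and -0.21 (SE 0.0867) for HS+REC, and neither passed adjustment (adjusted p = 0.256 and 0.284 in edgeR).

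PSMD9 was raised by siLonp1 by 0.24 (adjusted p = 0.0105) in Ctrl, 0.28 (adjusted p = 0.00343) in HS and 0.28 (adjusted p = 0.00305) in HS+REC in edgeR. Its mean was 47.1 CPM ± 2.90 (SD, n = 3) in Ctrl scramble and 55.8 CPM ± 2.84 in Ctrl siLonp1, and heat gave no call in either arm. PSMD10, also a base chaperone, was not called under siLonp1 (-0.04, 0.14 and 0.03). PSMD6 was raised by 0.23 (adjusted p = 0.0124), 0.22 (adjusted p = 0.0157) and 0.34 (adjusted p = 0.000394) in edgeR. In Ctrl the calls of PSMD9 and PSMD6 were kept in 4 of 6 fits with 1 library left out, and neither was called with library sizes alone (0.17 and 0.16). In HS PSMD6 was also not called with library sizes alone (0.12).

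Among the other roles, PSMA7 was the 1 alpha gene lowered in the 3 conditions (-0.29, -0.20 and -0.28), with -0.12 in HS without HS scramble replicate 3, and PSMA1 and PSMA6 were raised in HS (0.18 and 0.24), where neither was called with library sizes alone (0.09 and 0.14) and PSMA1 was kept in 3 of 6 fits with 1 library left out. Of the ATPases, PSMC4 was lowered in Ctrl and HS+REC (-0.15 and -0.18) and PSMC5 in HS and HS+REC (-0.15 and -0.20). The Ctrl call of PSMC4 was kept in 2 of 6 fits with 1 library left out, and with GC and length offsets its value was -0.06 and was not called. In the lid, PSMD12 and PSMD14, the latter the deubiquitinase Rpn11, were raised in HS (0.21 and 0.27) and HS+REC (0.17 and 0.19). In HS+REC these calls were kept in 3 and 2 of 6 fits with 1 library left out, and PSMD12 was 0.09 without HS+REC siLonp1 replicate 2. With library sizes alone PSMD12 (0.11 and 0.10) and PSMD14 (0.17 and 0.12) were not called in HS or HS+REC, and in a fit of only the groups compared they were not called in HS+REC. PSMF1, the regulator PI31, was lowered in HS and HS+REC (-0.17 and -0.23), but neither was called with GC and length offsets (-0.02 and -0.16). PSMG1, the chaperone PAC1, was also lowered in both (-0.19 and -0.21). The HS call of PSMG1 was kept in 3 of 6 fits with 1 library left out, and its value was -0.08 without HS scramble replicate 3. PSME1 and PSME2 encode the partners PA28 alpha and PA28 beta. PSME1 was raised in HS (0.24), and PSME2 was lowered in Ctrl (-0.17), where it was -0.04 and not called with GC and length offsets. The count of 9 raised in HS was 5 without HS scramble replicate 1 and 17 without HS scramble replicate 3.

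The response of proteasome genes to heat was not called as different between the arms for any gene after adjustment, although 1 was called with HS when no filter on low values was applied, 1 with HS in a fit of only the groups compared, and 1 with HS+REC under GC and length offsets. With HS, 0 of 46 interactions were called in either direction (0.475% and 1.39% of all genes were called higher and lower in siLonp1), and 6 had an unadjusted p under 0.05 (PSMA1, PSMB3, PSMB8 and PSME1 above 0, PSMD5 and PSME3 below). With HS+REC, 0 were called (0.686% and 0.896% of all genes) and 3 had an unadjusted p under 0.05 (PSMD5, PSMD11 and PSME3, all below 0). DESeq2 called 0 for both. The median of the interaction with HS was 0.08, with 33 of 46 values above 0, where all genes had a median of 0.00 and 48.9% of values above 0. With GC and length offsets it was 0.05, and the median of all genes was then 0.03. It was 0.05 without HS siLonp1 replicate 1 and 0.14 without HS scramble replicate 3. The SD of 0.0991 given above is for 2 single libraries and is not the spread of this difference of group means. In simulated counts an interaction of 0.32 on the log2 scale, close to the largest seen here (0.35), was recovered for 11 of 50 genes, and one of 1.5-fold for 37 of 50. The changed genes were drawn at random from all genes tested, whose median level in Ctrl scramble was 28.71 CPM, against 139.7 CPM for the members. These rates therefore do not give the recovery for the 46 genes.

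The genes that work with the proteasome were read from lists of related factors. For comparison, HS raised 18.6% and lowered 17.3% of all genes in scramble, and 20.2 and 22.1% in siLonp1. Of 13 subunits and cofactors outside the PSM names (such as POMP, USP14 and ADRM1), HS raised 1 and lowered 4 in each arm, and siLonp1 raised 5 and lowered 3 in Ctrl (26.3 and 22.9% of all genes). Their median HS effect was -0.06 in scramble and 0.02 in siLonp1. Of 11 ubiquitin shuttle and adaptor genes, HS raised 4 and lowered 0 in scramble and raised 3 and lowered 3 in siLonp1. ZFAND2A, an adaptor of the proteasome known to be heat inducible, stood apart. It had 21.1, 22.1 and 20.7 CPM in unheated scramble cells, 157, 160 and 183 CPM after HS and 222, 273 and 278 CPM after HS+REC. With siLonp1 it had 15.7, 19.01 and 16.2 CPM, then 234, 196 and 212 CPM, then 341, 310 and 270 CPM. The HS effect was 2.97 (SE 0.102, adjusted p = 9.27e-17) in scramble and 3.65 (SE 0.105, adjusted p = 2.52e-18) in siLonp1. MIDN, which carries substrates to the proteasome, rose by 0.72 and 0.52 in HS. ZFAND6 was raised by siLonp1 by 0.79, 1.08 and 1.17 in the 3 conditions. Of 10 genes of the VCP segregase, which extracts ubiquitinated proteins, HS raised 1 and lowered 0 in scramble and raised 2 and lowered 4 in siLonp1.

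Of 8 genes of the NFE2L1 axis, HS raised 5 and lowered 2 in scramble and raised 4 and lowered 2 in siLonp1. NFE2L1, the activator of proteasome genes, was itself lowered, from 222, 223 and 219 CPM to 183, 193 and 168 CPM in scramble (-0.29, SE 0.0705, adjusted p = 0.00243) and by -0.39 (SE 0.0705, adjusted p = 7.63e-05) in siLonp1. NFE2L2 rose by 0.64 and 0.74 and its partner MAFF by 1.16 and 1.14 in HS. SYVN1, the ligase that disposes of NFE2L1, was lowered by HS (-0.47 and -0.80), and FBXW7, another of its ligases, was raised (0.66 and 0.67). Under siLonp1 the list had 2 raised and 3 lowered genes in Ctrl, 2 and 4 in HS and 2 and 5 in HS+REC, beside 26.3 and 22.9%, 28.1 and 26.7%, and 26.8 and 27.3% of all genes. MAFF (0.98, 0.96 and 1.17) and MAFK (0.59, 0.28 and 0.62) were raised in the 3 conditions, while NFE2L1 was not called (0.16, 0.05 and 0.10). NGLY1, the glycanase that processes NFE2L1 (-0.49, -0.39 and -0.42), MAFG (-0.19, -0.24 and -0.21) and FBXW7 (-0.19, -0.18 and -0.20) were lowered in the 3 conditions, SYVN1 in HS (-0.44) and HS+REC (-0.24), and NFE2L2 in HS+REC (-0.18). The FBXW7 calls were kept in 0, 2 and 2 of 6 fits with 1 library left out and that of SYVN1 in HS+REC in 3 of 6. FBXW7 in HS was -0.05 with GC and length offsets, and NFE2L2 in HS+REC was -0.08, both without a call. Of 11 antigen processing and interferon partners of the immunoproteasome, siLonp1 raised 2 and lowered 1 in Ctrl, raised 2 and lowered 3 in HS, and raised 2 and lowered 3 in HS+REC, which can be read against the same shares of all genes. NLRC5, the activator of antigen presentation genes, had a mean of 4.04 CPM in Ctrl scramble and 3.44 CPM in Ctrl siLonp1 and was lowered by siLonp1 in HS (-0.99, adjusted p = 1.53e-05) and HS+REC (-0.99, adjusted p = 1.67e-05) in edgeR. TAPBP, which loads peptides, was lowered by HS in both arms (-0.49 and -0.59).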

How the data were processed

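The authors aligned paired-end reads of stranded mRNA libraries to hg38 with STAR 2.7.3a and counted them on UCSC genes with featureCounts. The deposited values are raw counts for 26485 symbols and were used without change. Strand setting, shared reads and annotation release are not given in the sources used here. No column of another sample was present.

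CPM were scaled with TMM factors (0.934 to 1.06). The quasi-likelihood test of edgeR 4.0.16 (R 4.3.3) was run on the 12832 genes above 1 CPM in at least 3 libraries, in 1 model of the 6 group means without a replicate block, with Benjamini-Hochberg adjustment and 11 contrasts. Intervals are 95% intervals of the model. Alternatives used DESeq2 1.42.0, other scalings, filters and thresholds, offsets for GC content and length (GENCODE v44, 92.8% of genes and all 46 members), the replicate block, and each library left out. Replicates of a group differed by more than counting error, and where they share a source the p-values measure technical spread.

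Members and lists were chosen with earlier results of these data known. Values in every library are given for the 3 called members with the largest change per comparison and for 6 catalytic genes. PSME4 was given in this way after its values were seen. List genes are named if called at a fold above 1.5, and NFE2L1, NGLY1, MAFG and IRF1, which did not reach it, were named after their values were seen. Markers are given as a check of the cell line. In simulated counts of 12832 genes, for the HS effect in siLonp1, 30 of 50 genes changed by 0.32 on the log2 scale, 43 of 50 changed 1.5-fold and 49 of 50 changed 2-fold were recovered, and 9 of the unchanged genes in the same counts were called. The changed genes were drawn from all genes tested, and they were far fewer than the genes called in the data. The rates are therefore not those of the members.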

Additional observations from a re-analysis of the deposited data

Results flagged for a closer look

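No proteasome gene had a heat effect that differed between the arms after adjustment, and no rule for single outlying libraries was applied to groups of 3. HS scramble replicate 3 was apart from replicates 1 and 2 in the pairwise comparison of counts, and HS siLonp1 replicate 1 was apart from replicates 2 and 3. Among the related genes, 4 did differ by edgeR's interaction test. ZFAND2A was raised more in siLonp1 than in scramble by 0.68 (log2, adjusted p = 0.00938) with HS and by 0.58 (adjusted p = 0.0307) with HS+REC, of which the first was kept in 12 and the second in 4 of 12 fits with 1 library left out. Part of this is a lower unheated level: siLonp1 changed ZFAND2A by -0.32 in Ctrl, a call kept in 4 of 6 such fits, and by 0.36 in HS and 0.25 in HS+REC. YOD1, a deubiquitinase of the VCP segregase list, had HS effects of 0.20 (scramble) and -0.42 (siLonp1), a difference of -0.62 (adjusted p = 0.0179) that was kept in 7 of 12 such fits. IRF1, an inducer of immunoproteasome genes, had HS effects of 0.39 (scramble) and -0.17 (siLonp1), a difference of -0.56 (adjusted p = 0.0031), and the difference with HS+REC was -0.43 (adjusted p = 0.0228), kept in 12 and 4 of 12 such fits. IRF1 was named after its values were seen. LONP1, the silenced gene, changed in siLonp1 by -0.80 with HS and by 0.41 with HS+REC, and the differences from scramble were -0.76 (adjusted p = 0.000468) and 0.43 (adjusted p = 0.0321), kept in 12 and 3 of 12 such fits. In a fit of only the groups compared, the differences with HS+REC of ZFAND2A, IRF1 and LONP1 did not pass the threshold.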

How the results depend on the processing

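Of the 106 calls, RLE size factors kept 104, library sizes alone 81, DESeq2 106, all genes without a filter 86, a CPM above 1 in each of the 18 libraries 98, a fit of only the groups compared 86, FDR 0.01 54, and a fold above 2 kept 0. GC and length offsets kept 97, and 98 with the replicate block. No call changed direction except PSME3 with siLonp1 in HS, which was 0.0048 with those offsets and 0.0052 with the block added. The cause was not tested. The replicate numbers did not pair the libraries: deviations of same-numbered libraries correlated between -0.379 and 0.462, and only in 1 of 9 comparisons did every library correlate best with its own number. The replicate block kept 101 calls and moved 1 count by over 1.5 times, genes raised by HS in siLonp1, to 2 from 1. The 5 calls it did not keep were PSMB2 with HS and PSMC1 with HS+REC in scramble, PSMA6 (scramble) and PSME3 (siLonp1) in HS+REC against HS, and PSMD8 with siLonp1 in HS, and among related genes they included SYVN1 with siLonp1 in HS+REC and the differences of ZFAND2A and LONP1 with HS+REC. Each leave-one-out fit kept the direction of each call, and 49 of the 106 calls passed in all of them. Depth limits mainly PSMB9.

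Counts that moved by over 1.5 times are given as raised and lowered genes, and for each the cause was not tested. Shares of all genes were computed only for the scalings, the GC and length offsets and the fold limit. The other shifts can therefore not be read as particular to proteasome genes. Without a low filter, HS lowered 6 in scramble and raised 3 in siLonp1, siLonp1 in HS lowered 5, and the interaction with HS had 1 above 0. With the strict CPM filter, HS lowered 5 in scramble and raised 4 in siLonp1. DESeq2 raised 3 with HS in siLonp1. With only the groups compared, HS raised 4 in siLonp1, HS+REC against HS raised 4 in scramble, siLonp1 lowered 17 in Ctrl and raised 2 in HS+REC, and the interaction with HS had 1 below 0. With library sizes alone, HS+REC raised 3 and lowered 8 in scramble and raised 5 in siLonp1, HS+REC against HS in scramble raised 5 and lowered 2, and siLonp1 raised 0 and lowered 18 in Ctrl, raised 2 and lowered 15 in HS, and raised 2 and lowered 21 in HS+REC. With GC and length offsets, HS lowered 22 in scramble and 15 in siLonp1 (16 with the block), HS+REC raised 9 and lowered 8 in scramble, HS+REC against HS raised 19 in scramble and raised 11 and lowered 1 in siLonp1, siLonp1 raised 15 without heat, 23 after HS and 13 after HS+REC, and the interaction with HS+REC had 1 below 0. The replicate block with these offsets gave the same counts, apart from the 16 and from 13 lowered by HS+REC in siLonp1. At FDR 0.01, HS lowered 1 in scramble and 4 in siLonp1 and raised 0 in siLonp1, HS+REC raised 3 in scramble and lowered 4 in siLonp1, HS+REC against HS raised 5 in scramble, siLonp1 raised 0 and lowered 6 in Ctrl, raised 5 and lowered 3 in HS and raised 2 in HS+REC. At a fold above 2 every count was 0.

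With 1 library left out, HS lowered 1 to 14 in scramble and raised 0 to 2 and lowered 5 to 9 in siLonp1. HS+REC raised 3 to 7 in scramble and raised 5 to 9 and lowered 5 to 9 in siLonp1. HS+REC against HS raised 4 to 17 and lowered 0 to 1 in scramble and raised 2 to 4 and lowered 0 to 1 in siLonp1. The siLonp1 effect raised 0 to 2 and lowered 6 to 10 in Ctrl, raised 5 to 17 and lowered 5 to 9 in HS, and raised 2 to 5 and lowered 9 to 13 in HS+REC. The lowest counts came without HS scramble replicate 2 (1 lowered by HS and 4 raised from HS to HS+REC), Ctrl siLonp1 replicate 3 (5 lowered by HS in siLonp1), Ctrl scramble replicate 1 (3 raised by HS+REC), Ctrl siLonp1 replicate 2 and HS+REC siLonp1 replicate 2 (5 raised and 5 lowered by HS+REC in siLonp1), Ctrl scramble replicate 2 (6 lowered by siLonp1 in Ctrl), HS scramble replicate 1 and HS siLonp1 replicate 2 (5 raised and 5 lowered by siLonp1 in HS) and HS+REC scramble replicate 1 (2 raised by siLonp1 in HS+REC). The largest counts, 14 and 17, came without HS scramble replicate 3.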
